A study of Caenorhabditis elegans with 2 samples.

Results

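The 328 regions described here were AHA-1 ChIP-seq peaks on the autosomes of Caenorhabditis elegans whose summit lay in the promoter window of at least 2 protein-coding genes. They were taken from the 3000 peaks with the highest signal in the list called from both replicates pooled, of which 2341 were autosomal. That list held 30000 peaks in all, 24191 of them autosomal. A summit counted as in the promoter window of a gene when it lay up to 1000 bp before, or up to 500 bp behind, one of the gene's annotated starts. Because the members were selected on signal and on position, their signal, their rank in the pooled list and their nearness to starts are given as a description, with no test.

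The study mapped the sites of AHA-1 tagged with enhanced green fluorescent protein (eGFP) in 1 group of whole L4 larvae, the last larval stage, with 2 biological replicates. Both came from strain OP124, which carries the unc-119(ed3) mutation on linkage group III and wgIs124, an insertion targeting aha-1, and both were mixed in sex. Per the labels the antibody was aha-1. The peak lists carry no read counts, so the depth of each replicate is unknown, and every interval below covers counting error over peaks only. Nothing in the whole-animal lists assigns a peak to a tissue.

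AHA-1 is the worm counterpart of mammalian ARNT, a transcription factor of the bHLH-PAS family. It binds DNA as a dimer with a partner such as HIF-1, the hypoxia-inducible factor, or AHR-1, the aryl hydrocarbon receptor, and such dimers read sites built around a short core, ACGTG or GCGTG. In the compact worm genome neighbouring genes often start head to head and share 1 stretch of promoter DNA. Genes that lie in a row on the same strand may be read as 1 operon from a promoter upstream of the first, and many worm messages have their first bases replaced by a spliced leader, so an annotated start is often not the place where transcription begins.

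The sequences below show what lay under the strongest summits of both main arrangements, the 6 strongest divergent and the 4 strongest same-strand members that could be shown. Each is 61 bases of the plus strand of WBcel235 (ce11) centred on the summit, from the RefSeq genome. Capitals mark a core, ACGTG or GCGTG, on either strand, so that a core on the minus strand reads as CACGT or CACGC. Within 50 bp of the summit, 15.9% of all autosomal peaks of the pooled list held a core, and 28.8% of the autosomal peaks among the top 3000.
tasp-1 and K01G5.10, divergent, chrIII:10759220-10759280: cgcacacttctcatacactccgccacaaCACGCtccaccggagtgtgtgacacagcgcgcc
iff-2 and F54C9.14, divergent, chrII:8561402-8561462: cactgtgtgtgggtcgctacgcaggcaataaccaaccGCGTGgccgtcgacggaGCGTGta
rpl-15 and K11H12.8, divergent, chrIV:654900-654960: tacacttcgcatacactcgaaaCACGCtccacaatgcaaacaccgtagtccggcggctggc
ska-3 and rps-12, divergent, chrIII:5679095-5679155: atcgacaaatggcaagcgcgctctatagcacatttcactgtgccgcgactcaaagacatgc
tag-340 and nhl-2, divergent, chrIII:4899869-4899929: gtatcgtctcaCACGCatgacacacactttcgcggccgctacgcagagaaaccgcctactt
Y17G9B.5 and rpl-20, divergent, chrIV:4750022-4750082: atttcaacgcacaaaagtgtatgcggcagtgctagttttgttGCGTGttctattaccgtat
rps-28 and Y41D4B.4, same-strand, chrIV:1659241-1659301: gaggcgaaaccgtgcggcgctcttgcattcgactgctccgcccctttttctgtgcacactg
sec-61.G and F32D8.13, same-strand, chrV:10897297-10897357: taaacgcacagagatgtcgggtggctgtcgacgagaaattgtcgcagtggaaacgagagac
nspg-9 and dld-1, same-strand, chrIV:14464245-14464305: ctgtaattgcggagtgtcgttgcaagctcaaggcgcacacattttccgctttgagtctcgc
F55A11.6 and F55A11.11, same-strand, chrV:11782937-11782997: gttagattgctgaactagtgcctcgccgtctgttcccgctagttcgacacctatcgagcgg
Of the 6 divergent windows, 5 held a core in the GCGTG form and none in the ACGTG form. The 4 same-strand windows held no core in these 61 bases, but those of dld-1 and F55A11.6 had one 36 and 42 bp from the summit, and ska-3 with rps-12 one at 46 bp. The strongest same-strand member, egl-30 with C53H9.4, whose sequence is not shown, had 2 cores within 50 bp, the nearer at 20 bp.

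Head-to-head pairs made up most of the members. Of the 328 peaks, 309 lay in the windows of exactly 2 genes, and 274 of these were divergent pairs, 88.7% (exact 95% interval 84.6 to 92.0). Another 32 peaks lay at genes on the same strand and 3 at genes that face each other. The remaining 19 peaks had 3 or more genes, and each of these sets also contained a divergent pair. Of the autosomal positions taken every 100 bp, 4.21% lay in the windows of at least 2 genes, and among positions at exactly 2 genes 79.7% lay at divergent pairs.

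The share of autosomal peaks at shared promoters was higher in the stronger parts of the pooled list. It was 23.5% (19.4 to 27.98) among ranks 1 to 530, 12.1% (10.7 to 13.6) among ranks 531 to 3000 and 6.52% (5.89 to 7.20) among ranks 3001 to 10000. In the last 10000 ranks of the list the share was 4.37% (3.93 to 4.84), an interval that includes the share of all positions. The share of divergent pairs among peaks at 2 genes was 92.8% in the first of these bins, 87.2% in the second, 82.8% in the third, 75.5% in the fourth and 79.4% in the last. Ranks 1 to 530 are also the peaks that the authors kept by the irreproducible discovery rate (IDR), a measure of how well replicates rank the same peaks.

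**Figure D1:**
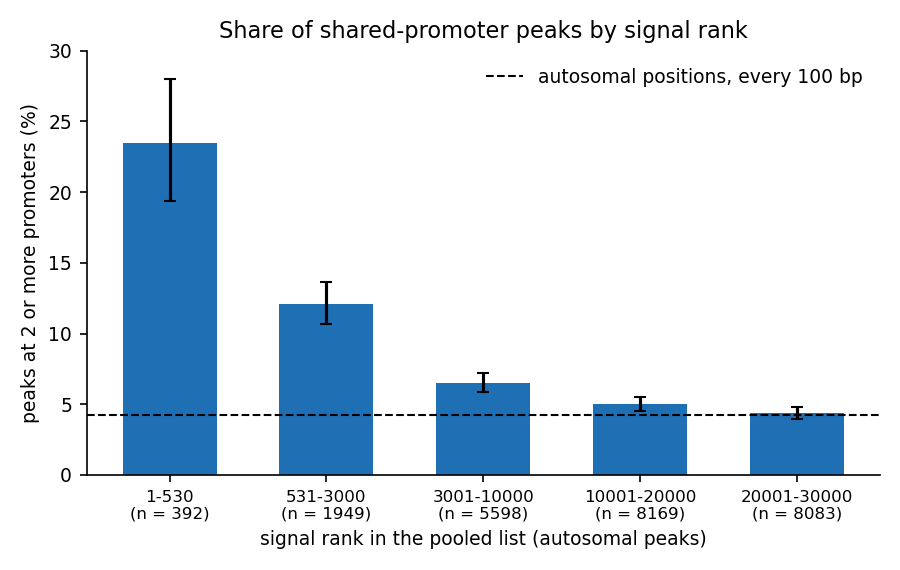
Percentage of autosomal peaks at 2 or more promoters, in 5 bins of signal rank in the pooled list, with exact 95% binomial intervals. The dashed line is the 4.21% of autosomal positions, taken every 100 bp, that lie in 2 or more windows; the bars go from 23.5% in the first bin to 4.37% in the last.

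The members had signals from 12.7 to 131, with a median of 18.5. The strongest, at rank 9 of the pooled list, lay 57 bp upstream of tasp-1, the counterpart of the protease taspase, and 728 bp upstream of K01G5.10 on the other strand. It ranked 10 in replicate 1 and 11 in replicate 2. The next, at rank 13, lay 65 bp upstream of iff-2, the translation factor eIF5A, with ranks of 20 and 12 in replicates 1 and 2. The peak at rank 14, between rpl-15, a protein of the large ribosomal subunit, and K11H12.8, ranked 9 and 28. All 3 were near the top of both replicates, and each had a core at most 9 bp from its summit.

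Just below these, the replicates placed some members farther apart. The pair mce-1, methylmalonyl-CoA epimerase, and ndub-7, a subunit of respiratory complex I, ranked 74 in replicate 1 and 14 in replicate 2. The pair Y17G9B.5 and rpl-20 ranked 232 and 17, and the pair rps-1 and ifet-1, a translational repressor that binds eIF4E, ranked 111 and 24. In these 3 the peak stood higher in replicate 2. By contrast the pair ska-3, named for the SKA complex of kinetochores, and rps-12 ranked 40 and 31, and the pair tag-340 and nhl-2, a TRIM-NHL protein that works with microRNAs, ranked 35 and 36. The pair hsr-9, a relative of the DNA damage protein 53BP1, and rps-19 ranked 66 and 69.

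The remaining peaks among the 15 strongest members varied in the same way. The peak between mdh-1, malate dehydrogenase, and F46E10.3 lay midway in the widest divergent span of all, 1771 bp, and ranked 173 and 34 in the replicates. The peak at F29B9.11, jmjd-1.2, a histone demethylase, and mrps-21, a mitochondrial ribosomal protein, ranked 349 and 29. The peak 18 bp upstream of rpl-12, with lin-54 of the DREAM repressor complex on the other side, ranked 189 and 60, and no core lay within 150 bp of its summit. The peak between wip-1, a partner of the actin regulator WASP, and larp-1, an RNA-binding protein, ranked 61 and 178. Thus replicate 2 gave the higher place to the first 3 of these and replicate 1 to the last.

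The summits of divergent members mostly lay inside the interval between the opposing starts. The starts were a median of 518 bp apart (quartiles 342 and 764, range 15 to 1771), taking for each gene its start nearest to the summit. The summit lay between them in 236 of 274 pairs, 86.1% (81.5 to 90.0). In the 845 weaker divergent pairs beyond rank 3000, the same share was 60.6% (57.2 to 63.9). The difference was not tested, since position near starts had chosen both groups and signal which peaks fell on which side.

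Over all 274 divergent pairs the plus-strand start was the nearer in 149 and the minus-strand start in 124, a difference that was not tested. The nearer start was a median of 157.5 bp from the summit and the farther one 387 bp. Among the 236 summits between the starts, the nearer start stood at a median of 0.330 of the distance between the starts. Over all members, 252 summits (76.8%) lay between coding genes, 33 in a UTR exon, 30 in an intron and 13 in a coding exon.

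**Figure D2:**
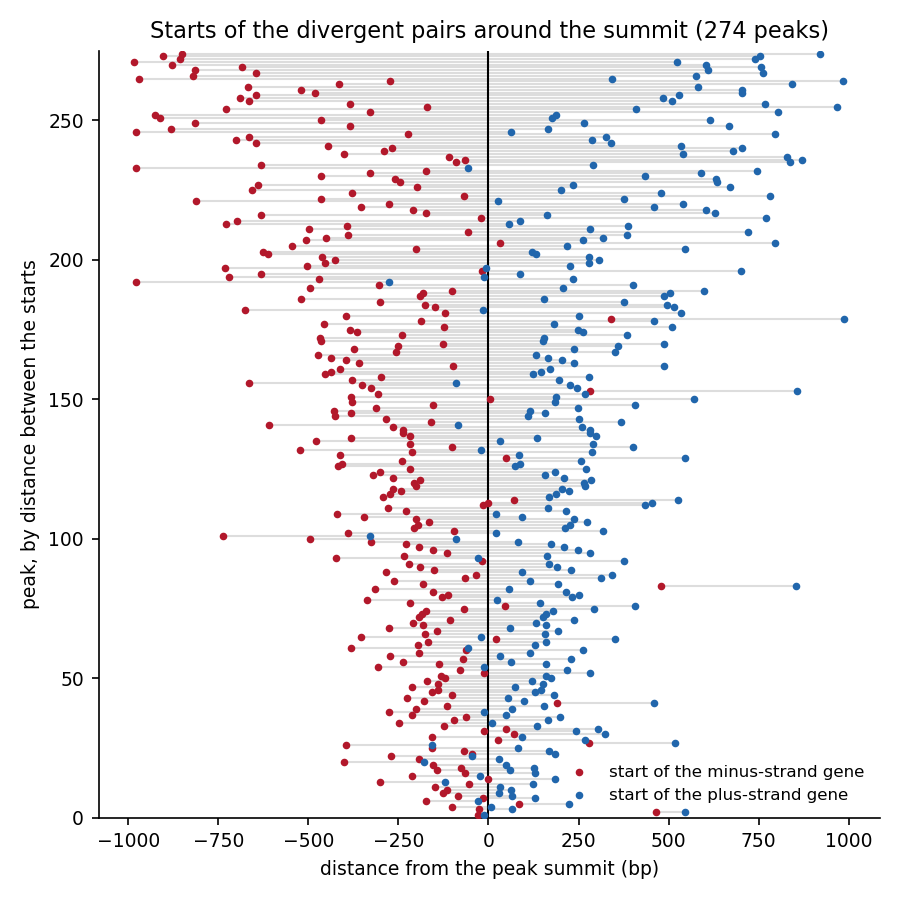
Distance in bp from the summit (vertical line at 0) to the start of the minus-strand gene (red) and of the plus-strand gene (blue) for each of the 274 divergent peaks, ordered by the distance between the starts. The line lies between the red and the blue point in 236 peaks.

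Same-strand members were mostly upstream of both genes. In 20 of the 32 pairs the second gene began after the end of the first, always less than 500 bp behind it, in 8 the second gene lay inside the first, and in 4 the genes overlapped in another way. The summit lay upstream of both starts in 24 pairs and was nearer to the first gene in 29. The starts were a median of 549 bp apart (0 to 1190). In the closest pair, unc-60, an actin depolymerizing factor, with F53E2.2, the annotation gives both genes 1 common start. Which gene of a pair a peak belongs to cannot be told apart from these lists.

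The strongest same-strand members had similar places in both replicates. The peak 35 bp upstream of egl-30, the Gq alpha subunit of neuronal and muscle signalling, with C53H9.4 inside it, ranked 58 in replicate 1 and 94 in replicate 2. The peak 420 bp upstream of rps-28, with Y41D4B.4 starting 112 bp behind the end of rps-28, ranked 77 and 126. The peak at sec-61.G, a subunit of the channel through which proteins enter the endoplasmic reticulum (ER), ranked 112 and 197. In each of these 3 pairs the named gene is the first in the row. At nspg-9 and dld-1, the dihydrolipoamide dehydrogenase of mitochondrial enzyme complexes, the order was the other way. The summit lay 242 bp upstream of dld-1 and 315 bp downstream of the start of nspg-9, with ranks of 204 and 338. At F55A11.6 and F55A11.11 the ranks were 168 and 1622, the widest gap of the 5 strongest, and a snoRNA gene, F55A11.10, lay within 200 bp of the summit.

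The 3 facing members, whose starts were 283, 74 and 60 bp apart, were of middling signal. They lay at T28F4.4 and T28F4.8, at abcf-3, an ATP-binding protein of the ABC family, and F42A10.5, and at D2005.3 and D2005.4, with pooled ranks of 1309, 1548 and 1710. All 3 held a core within 50 bp of the summit. The 19 members with 3 or more genes were 18 sets of 3 and 1 set of 4, Y62E10A.23, mdt-9 of the Mediator complex, Y62E10A.20 and lsm-3 of the spliceosome, which ranked 1244 in replicate 1 and 200 in replicate 2. The strongest sets after that of jmjd-1.2 were rab-18, a vesicle GTPase, with kbp-4 and par-2, a polarity protein of the embryo, with ranks of 227 and 152, and mev-1, a subunit of complex II, with jmjd-4 and ced-9, the BCL-2 counterpart that blocks cell death, with ranks of 245 and 144. Both sets were high in both replicates.

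A core lay near the summit more often in the members than in any of the other classes compared. It lay within 50 bp in 122 of 328 members, 37.2% (31.9 to 42.7), against 30.3% (27.3 to 33.5) of 900 top-3000 autosomal peaks at 1 promoter, 25.2% (22.6 to 27.8) of 1113 outside promoter windows and 18.3% (16.1 to 20.7) of 1125 weaker shared-promoter peaks. In a window of the same length 250 bp away, 15.9% of members held a core. Against peaks at 1 promoter the odds ratio came to 1.36 (1.03 to 1.79), with an adjusted p of 0.0361 over 4 tests by the two-sided exact test of Fisher. By the same exact test it was 1.76 (1.34 to 2.31; adjusted p = 6.7e-05) against peaks outside promoters, and 2.64 (2.00 to 3.49; adjusted p = 1.87e-11) against weaker shared promoters. Signal rank alone split this last class from the members. In peaks at 1 promoter the core share was 50.6% in ranks 1 to 530, 18.1% in ranks 3001 to 10000 and 14.8% in ranks 20001 to 30000. In shared promoters it was 52.2%, 20.5% and 15.3%. The core share was thus lower in weaker peaks of both classes, and whether the fall differs between them was not tested. Divergent members, 104 of 274 with a core, and same-strand members, 9 of 32, gave an odds ratio of 1.56 (0.665 to 3.99; adjusted p = 0.335, Fisher's exact test), an interval too wide to place either above the other.

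Signal and base composition moved with these shares. Members were stronger peaks than the others of the top 3000: 92 of 328 members, 158 of 900 peaks at 1 promoter and 142 of 1113 outside promoters were on the IDR list, against 16.7% of all autosomal peaks of the top 3000. On the IDR list the core share was 52.2% of 92 members against 50.6% of 158 peaks at 1 promoter, an odds ratio of 1.06 (0.616 to 1.84; adjusted p = 0.896, Fisher's exact test). Members were also richer in G and C, with a median of 46.5% within 50 bp of the summit against 43.6% at 1 promoter, 42.6% outside and 37.6% in weaker shared promoters. Among peaks of 40% to under 50% G or C the core share was 29.6% in members and 34.7% at 1 promoter, so the order was the other way there, and the adjusted p of all 4 comparisons was 0.815 (Fisher's exact test). The difference from peaks at 1 promoter thus passed the test over the whole top 3000 but not among its strongest peaks. The classes of base composition were added after the data were seen, and the adjustment covers the 4 tests within each class, not the other classes. Of these classes the difference from peaks at 1 promoter passed only under 40% G or C, with an odds ratio of 1.93 (1.08 to 3.38; adjusted p = 0.0237, Fisher's exact test), and at 50% or more it was 1.42 (0.883 to 2.27; adjusted p = 0.231). With peaks ranked in replicate 2 alone it did not pass either, with an odds ratio of 1.25 (0.933 to 1.67; adjusted p = 0.166, Fisher's exact test), against 1.44 (1.07 to 1.94; adjusted p = 0.0173) in replicate 1 alone.

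The forms of the core were also counted apart, and no test compared one form with the other. Neither form was compared with peaks at 1 promoter within classes of G and C content or on the IDR list. Whether the differences below hold there is therefore unknown. GCGTG lay in 24.1% of members (19.6 to 29.1), 15.7% of peaks at 1 promoter and 7.21% of all autosomal peaks, an odds ratio of 1.71 (1.23 to 2.35; adjusted p = 0.00133, Fisher's exact test) against peaks at 1 promoter. ACGTG, the form in the hypoxia response element, lay in 16.2% of members (12.3 to 20.6), 17.8% of peaks at 1 promoter and 9.63% of all, an odds ratio of 0.891 (0.621 to 1.26; adjusted p = 0.609, Fisher's exact test) against peaks at 1 promoter. Against weaker shared promoters both forms were more frequent in members, with odds ratios of 2.58 (1.86 to 3.58; adjusted p = 4.39e-08, Fisher's exact test) for GCGTG and 2.04 (1.39 to 2.96; adjusted p = 0.000719) for ACGTG. Here too the weaker class was split from the members by signal rank alone. Among members, GCGTG lay in 70 of 274 divergent and 3 of 32 same-strand peaks, an odds ratio of 3.32 with an adjusted p of 0.0479 by Fisher's exact test, but its interval, 0.978 to 17.5, includes 1 and the second share rests on 3 peaks. The palindrome CACGTG, which many bHLH proteins read and which contains ACGTG, lay in 2.13% of members (0.862 to 4.35) and in 36 of 900 peaks at 1 promoter. Among the other motifs searched, CGCG, which overlaps some GCGTG matches, lay in 43.3% of members and 29.0% of peaks at 1 promoter, GAGAGA in 14.9% and 20.7%, and CTGCGTC in 7.62% and 8.44%. Both strands were searched for each motif, and the differences in these last motifs were not tested.

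Cores were denser toward the summit. Per base of distance, counting both sides, 0.624% of members had their nearest core 0 to 10 bp from the summit, 0.386% at 11 to 25 bp, 0.274% at 26 to 50 bp and 0.134% at 51 to 100 bp. In peaks at 1 promoter the share in the nearest bin was 0.460% per base, and in weaker shared promoters 0.237%. In all, 25 members had 2 or more cores within 50 bp, as the iff-2 sequence shows, and 142 had none within 150 bp.

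**Figure D3:**
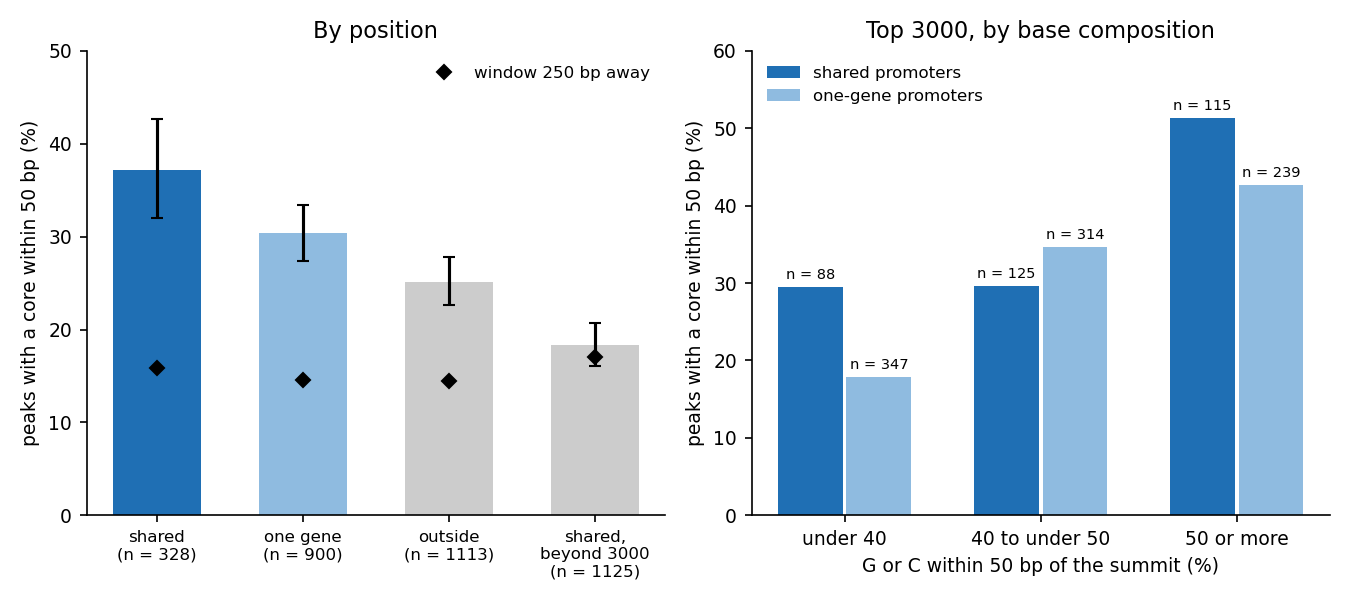
Percentage of peaks with a core within 50 bp of the summit. On the left, bars are the 4 classes of autosomal peaks with exact 95% binomial intervals and diamonds a window of the same length 250 bp away, with shared promoters at 37.2% and weaker shared promoters at 18.3%. On the right, the 2 promoter classes of the top 3000 are split by G and C content; members stand higher in the lowest and highest bins and lower in the middle one.

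The members touched 657 distinct protein-coding genes, 3.81% of the 17242 on the autosomes, and 202 of these have only a sequence name. Of the 657, 188 (28.6%) fell in at least 1 of 24 lists of gene functions, against 17.9% of all autosomal protein-coding genes and 21.4% of the genes at one-gene peaks. The percentages of lists below are to be read against the 3.81% of all genes. They are counts, with no test, since the lists and members were chosen with results of these data known.

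Genes of the ribosome led. Of the 48 autosomal genes of the large subunit 20 (41.7%) lay at a member, and of the 31 of the small subunit 14 (45.2%). At one-gene peaks of the top 3000 lay 8 and 4. Small-subunit genes had a median pooled rank of 176.5 and large-subunit genes 627, against 1111 over all members. Beside those already described, rpl-4 shared its peak with B0041.8 and ranked 639 in replicate 1 and 101 in replicate 2. A core lay within 50 bp in 5 of the 20 large-subunit and 5 of the 14 small-subunit peaks, against 37.2% of all members and the background of 28.8%.

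Other genes of protein synthesis followed at lower shares. Of 41 translation factors 10 (24.4%) lay at a member. They included eef-1A.1, the elongation factor that delivers tRNA, beside rfc-4, which loads the replication clamp, with ranks of 159 and 330, and eef-2, the translocation factor, beside clsp-1, a claspin, with ranks of 196 and 510. The peak between eef-1G, a further elongation factor subunit, and ctf-4 ranked 350 and 134. Mitochondrial ribosomal proteins had 9 of 70 genes, among them mrpl-35, mrpl-37 and mrps-6. The aminoacyl-tRNA synthetases aars-1, ears-2 and fars-1 were 3 of 31, and the nucleolar genes nol-58, nol-10 and fib-1, which encodes fibrillarin, 3 of 33.

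Genes of energy metabolism included several parts of the respiratory chain. Of 52 listed genes 10 lay at a member, led by cox-6B of complex IV, sdhd-1 of complex II and atp-1 of the ATP synthase. The peak at cox-6B, Y71H2AM.20 and nduc-2 ranked 663 and 72, that of sdhd-1 and ilkp-1 ranked 1069 and 189, and that of atp-1 and mcrs-1 ranked 3141 and 147. All 3 thus stood lower in replicate 1, and the last was outside its top 3000. Subunits of complex I that carry symbols beginning with ndu are not on the list, nor is mev-1 of complex II, whose peak is stronger than that of cox-6B. Those at the stronger members, ndub-7, nduc-2, nduf-2.2 and ndua-8, were picked out after their values were seen. Of 36 genes of the tricarboxylic acid cycle and glycolysis 3 lay at a member, mdh-1, dld-1 and aco-2, and of 24 genes of mitochondrial import and proteases clpp-1 and timm-23.

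Chaperones were the list with the largest count after the large ribosomal subunit. Of 69 genes 19 (27.5%) lay at a member and 4 at one-gene peaks. The peak at hsp-60, the mitochondrial chaperonin, and Y22D7AL.10 ranked 235 and 142, that of hsp-90 and C47E8.4 ranked 327 and 171, and that of hsp-110 and rpn-3, a proteasome subunit, ranked 1097 and 289. These 3 were within the top 3000 of both replicates. The heat-shock pair hsp-16.41 and hsp-16.2, small chaperones that start 221 bp apart, had 2 member peaks, neither overlapping a peak of replicate 1, and both overlapping the same peak of replicate 2, at rank 1126. The hsp-16 genes are a family of similar sequence, and whether reads from other members contribute to these peaks was not tested.

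The proteasome and ubiquitin list had 11 of 103 genes, led by rpn-3, usp-14, rpn-8 and pbs-1. Vesicle traffic had 15 of 120, and ER translocon and folding 6 of 24. The pair trap-3, part of a complex at the translocon, and sec-61.B, another subunit of the channel, encodes partners of the same machinery on both sides of 1 peak, which ranked 149 in replicate 1 and 128 in replicate 2. Of the vacuolar ATPase and autophagy list 3 of 41 lay at a member, vha-1, vha-8 and vha-2.

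Among nuclear genes, chromatin and histone genes had 18 of 147, led by jmjd-1.2, lin-54, htz-1, the histone variant H2A.Z, and set-16, a histone methyltransferase. The peak between htz-1 and wapl-1, a regulator of cohesin, ranked 115 in replicate 1 and 91 in replicate 2, and that between set-16 and drr-2, a translation initiation factor, ranked 71 and 110. Both peaks were thus high in both replicates. The histone pairs, named here after their values were seen, had lower places: his-68 and his-67, with alg-5, ranked 692 and 1314, his-4 and his-3 ranked 1892 and 9003, his-41 and his-35, with C50F4.6, ranked 1238 and 14014, and his-60 and his-59 ranked 14634 and 2856. Of these the first was in the top 3000 of both replicates. Histone genes are repeated in near-identical copies, and whether reads from other copies contribute to these peaks was not tested. Splicing and processing genes had 14 of 86, including the divergent pair rsp-1 and rsp-2, both splicing regulators of the SR family, with ranks of 1084 and 267. Transcription machinery and Mediator had 9 of 78, with taf-4, mdt-9, mdt-19 and mdt-26 at the strongest peaks, and the cell cycle list 7 of 91, with rfc-4, pola-1, smc-3 and cdc-6.

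Lists of regulatory and cell-specific genes lay at or below the share of all genes, apart from the hypoxia list, which had 1 gene. Chemoreceptors had 5 of 1329 genes (0.376%), nuclear hormone receptors 4 of 247 (1.62%), developmental factors 2 of 104, neuropeptides and insulins 1 of 110 and collagens and cuticle 1 of 172 (0.581%). Some of these few faced a gene of general cell function across the peak. For example col-38, a collagen, shared its peak with rpl-5, and nlp-4, a neuropeptide, with exos-3 of the RNA exosome. Others faced a gene with only a sequence name, such as nhr-142 with F44E7.9 and srh-89 with F25E5.1. These kinds of partner were not counted, here or over all members. The strongest peak of these lists lay 436 bp upstream of nhr-68, a receptor in propionate metabolism, and 14 bp upstream of H12C20.7. It ranked 270 and 133.

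The only gene of the hypoxia list of 16 at a member was aha-1 itself, beside C25A1.15. Its peak had pooled rank 735 and ranked 163 in replicate 1 and 3334 in replicate 2. The strain carries an aha-1 transgene, and whether extra copies of this locus contribute to its signal was not tested. Of the same 16 genes, 7 lay at one-gene peaks of the top 3000.

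**Figure D4:**
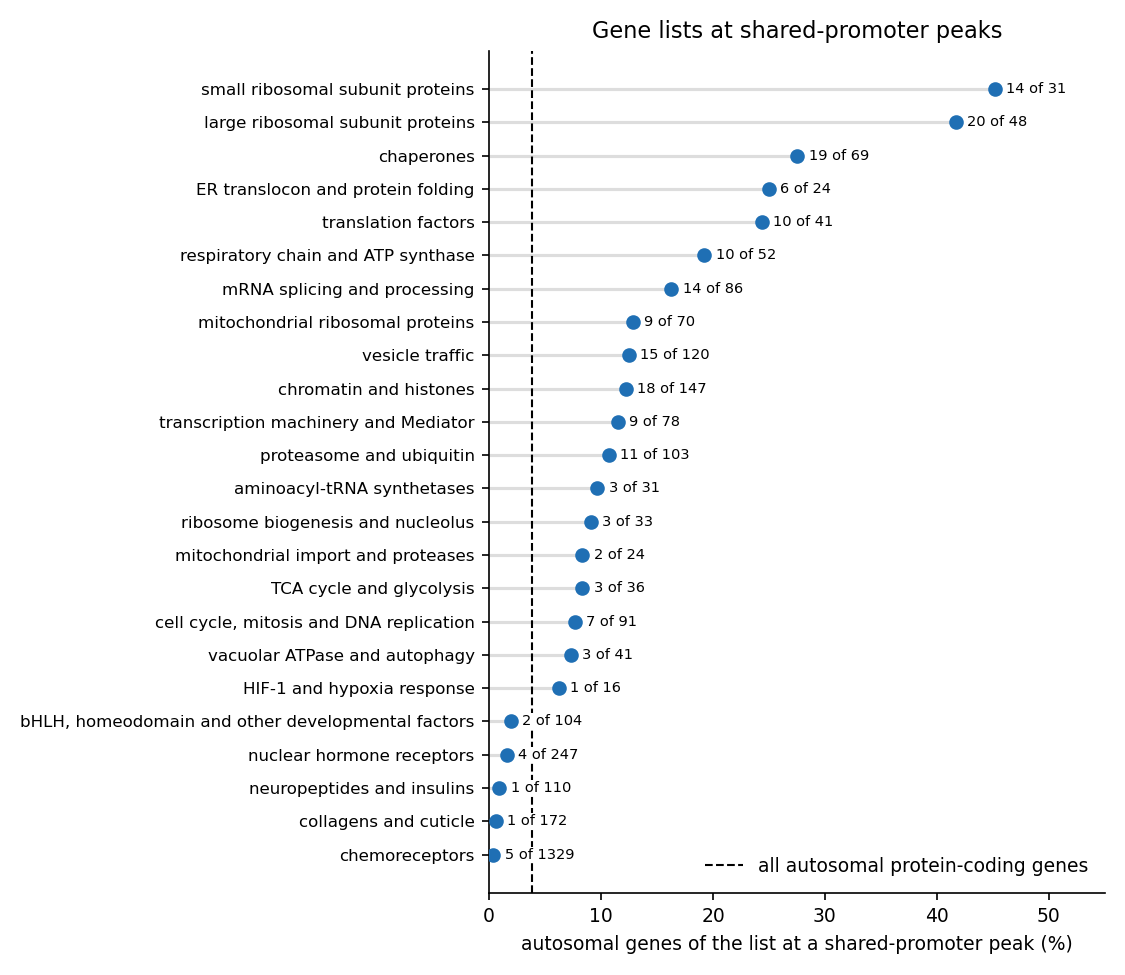
For each list of gene functions, the percentage of its autosomal genes that lie at a shared-promoter peak, with the number of genes beside each point. The dashed line is the 3.81% of all autosomal protein-coding genes; both ribosomal lists lie above 40% and chemoreceptors at 0.376%.

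Pairs of listed genes joined both like and unlike functions. At 36 of the 328 members 2 or more genes were on a list, at 121 exactly 1 and at 171 none. Grouping the lists into protein synthesis, energy metabolism, proteostasis and traffic, and nucleus, the most frequent mixed pairing among divergent members was protein synthesis with the nucleus, at 6 peaks: rpl-12 and lin-54, rfc-4 and eef-1A.1, rpl-7A and set-21, cpf-1 and rpl-26, pab-1 and rpl-30, and cdk-1 and iff-1. Among the other mixed pairings, proteostasis and traffic with the nucleus had 4 peaks, protein synthesis with energy metabolism 3 and protein synthesis with proteostasis and traffic 1. Genes of the same group faced each other at 5 peaks for proteostasis and traffic, of which 2 are the hsp-16 pair, and at 4 for the nucleus, his-4 with his-3, his-60 with his-59, rsp-1 with rsp-2 and rsp-5 with snr-3. Protein synthesis genes did so at 2 peaks, rps-1 with ifet-1 and rpl-24.1 with rps-10, and energy metabolism genes at 0. The protein synthesis gene was the nearer to the summit in 20 of 50 divergent members that had one, and the nuclear gene in 16 of 25. The groups differed in size, with 59 genes at members for protein synthesis, 15 for energy metabolism, 52 for proteostasis and traffic and 48 for the nucleus. These pairings and positions were not counted over other divergent pairs, so whether they are particular to the members is unknown.

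Of the 328 members, 267 overlapped a peak in each replicate, and many of these were ranked differently. A peak of replicate 1 overlapped 280 of 328 members, 85.4%, the same as the 85.4% of all autosomal peaks of the top 3000. A peak of replicate 2 overlapped 314, 95.7%, against 91.9%. Only 1 member overlapped neither. The member peaks come from the pooled reads of these same 2 replicates, so overlap with them is not independent evidence of a site.

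Fewer were strong in both. Of the members, 188 were in the top 3000 of replicate 1 and 226 in that of replicate 2, and 120 in both, 36.6% (31.4 to 42.1). The share over all autosomal peaks of the top 3000 was 27.2%, over those at 1 promoter 29.7% (26.7 to 32.8) and over those outside promoters 22.5% (20.04 to 25.03). A further 68 were in the top 3000 of replicate 1 only and 106 in that of replicate 2 only, which leaves 34 in neither. On the IDR list the share in both was 91.3% of 92 members, 87.3% of 158 peaks at 1 promoter and 88.7% of 142 outside promoters. Beyond it these shares were 15.3% of 236, 17.4% of 742 and 12.8% of 971, so members there stood below peaks at 1 promoter. With the members split by pooled signal into 4 parts of 82 peaks, their share in both was 91.5%, 45.1%, 9.76% and 0%. The last was 0 of 82 peaks, which allows up to 4.40%. The IDR list is chosen by how alike the replicates rank peaks, and the pooled signal comes from the same reads. Both splits are therefore a description, and the differences between classes were not tested.

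The ranks of the 267 members with an overlapping peak in each replicate had a Spearman's rho of 0.336, as a description of peaks that share 2 libraries. The ranks were within 2-fold of each other for 65 and more than 10-fold apart for 56. The largest differences were at rpt-2, a proteasome ATPase, with aps-1, an adaptor of clathrin coats, which ranked 29748 in replicate 1 and 631 in replicate 2, and at rpb-11, an RNA polymerase II subunit, with W01G7.4, which ranked 919 and 29155. Next were F38A5.2 with dnj-11, at 1468 and 28772, dnsn-1 with C24H12.4, at 27127 and 285, and C36B1.13 with C36B1.6, at 29751 and 3458. In each of these peaks 1 replicate placed the region near the end of its list.

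**Figure D5:**
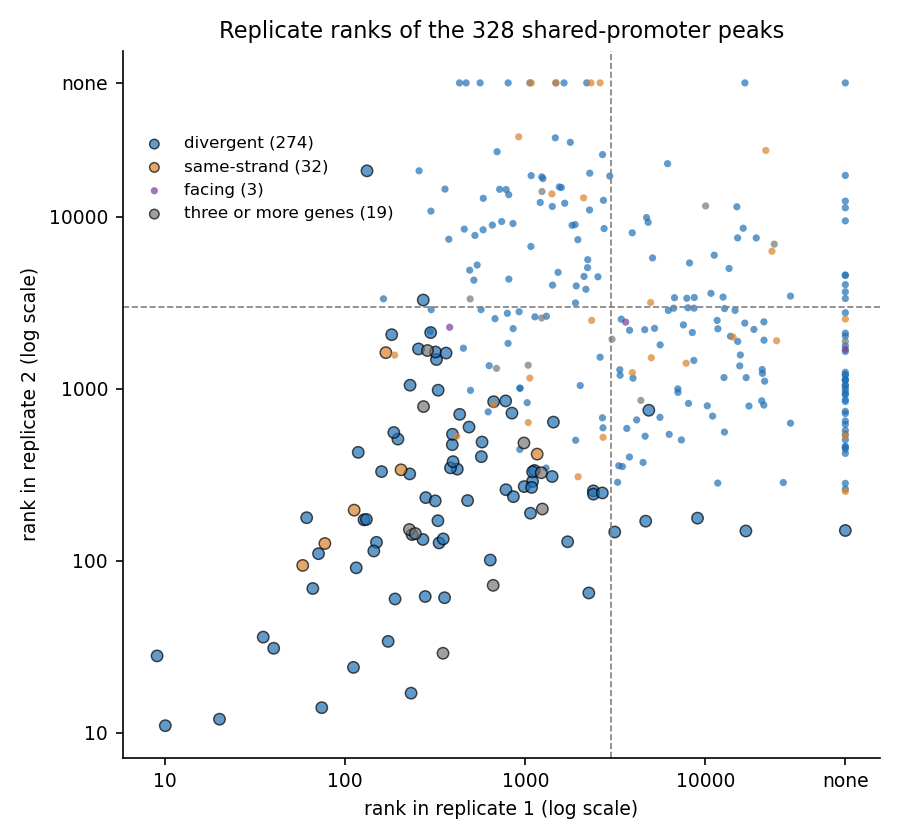
Rank by signal of the best overlapping peak in replicate 1 and in replicate 2, on log scales, for the 328 members, coloured by arrangement, where "none" means no overlapping peak, dashed lines mark rank 3000, and larger outlined points are on the IDR list. The outlined points gather in the lower left corner, with 84 of 92 inside both lines.

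The threshold on signal cut through a continuous run of values. Just inside it lay ints-11 with rpl-10 at pooled rank 2977, Y62E10A.23 with mdt-9 at rank 2994 and Y111B2A.12 with epc-1 at rank 2999, with a signal of 12.74. Just outside lay rbm-3.2 with ubc-12 at rank 3018, with a signal of 12.71, dpy-13 with zipt-2.2 at rank 3027 and a second peak in the windows of aha-1 and C25A1.15, at rank 3038. None of these 6 held a core within 50 bp of the summit, and all but Y62E10A.23 with mdt-9 were divergent.

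Some members lay near a non-coding gene or had the same genes as another member. A non-coding gene lay within 200 bp of 56 summits (17.1%), most often one annotated only as ncRNA, at 46, with a tRNA at 5 and a snoRNA at 7. The same share was not counted over other peaks, so whether it is particular to the members is unknown. The 328 peaks covered 320 distinct sets of genes, and 8 sets had more than 1 peak, such as eef-1B.1, an elongation factor subunit, with aco-2, the mitochondrial aconitase. The members were spread over the 5 autosomes, with 81 on chromosome III, 71 on I, 66 on V, 59 on II and 51 on IV.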

How the data were processed

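Per the text deposited with the samples, peaks were called for each of 2 replicates and for both pooled, against a control; aligner, caller and settings: not given in the sources used here. Deposited lists give per peak a signal, which served to rank peaks within a list, and a −log10 q-value as the authors deposited it, not used to rank. The ce11 lists were set on WBcel235 with Ensembl release 115 genes; the ce10 lists were not used. Peaks overlapping by at least 1 bp were matched across lists, taking the strongest. Each replicate serves as 1 sample. A core was searched in 50 bp either side of the summit. Core shares were compared by the two-sided Fisher's exact test with odds ratios and exact intervals and Benjamini-Hochberg adjustment over 4 tests, called under 0.05; peaks, not animals, are the units. Shares have exact (Clopper-Pearson) 95% intervals. Scripts ran in Python 3.11.15 with scipy 1.17.1 and were tested on simulated data. The members, 24 gene lists (matched by symbol) and 11 motifs were chosen with earlier results of these data known. Genes named are those at the 15 strongest members, the 5 strongest of each arrangement, up to 4 per list, the 5 largest replicate differences and 3 peaks on either side of the threshold, unless said otherwise. After results were seen, the name pattern of the chemoreceptor list was narrowed, since it had matched a gene of another family, and tim-1, the worm TIMELESS gene, was taken off the mitochondrial import list. The alternatives tried were other thresholds, windows, starts, core forms, exclusions and single replicates, and, added after seeing the data, classes of G and C content.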

Additional observations from a re-analysis of the deposited data

How the results depend on the processing

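Read depth is unknown, and 2 replicates give no spread within the group. No paired analysis was possible because there was 1 group. The odds ratio of a core against weaker shared promoters lost its call only in G and C classes, with 1.08 at 40% to under 50% and 1.76 at 50% or more. Against peaks outside promoters it lost its call in the top 1500 (1.37), on the IDR list (1.26), for ACGTG only (1.10) and in those G and C classes (1.13 and 1.38). Against peaks at 1 promoter it lost its call in the top 1500 (1.11), on the IDR list (1.06), with the window of 500 and 250 bp (1.27), with the outermost start of each gene (1.23), with 1 peak per 2 kb (1.34), with 100 bp either side (1.16) and at 50% G and C or more (1.42). It turned below 1 for ACGTG only (0.891) and at 40% to under 50% (0.791), and ranged from 1.25 to 1.44 with single replicates, losing its call with replicate 2 alone. Divergent against same-strand members, with no call, turned below 1 on the IDR list (0.541), with the narrower window (0.593) and for ACGTG only (0.784), ranged from 0.900 to 1.29 with single replicates, and passed for GCGTG only (3.32, with an interval of 0.978 to 17.5 that includes 1, on 3 same-strand peaks). The number of members was 206 in the top 1500, 92 on the IDR list, and 209 and 542 with the narrower window and one reaching 2000 bp upstream, where divergent pairs were 92.8% (IDR list), 95.6% and 77.8%. The share in the top 3000 of both replicates was 30.8% with X left out first, 57.8% in the top 1500, 26.8% in the top 5000 and 91.3% on the IDR list. The cause of these changes was not tested. The remaining settings, among them those without small RNA genes or the aha-1 and unc-119 loci, kept direction and call.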
